A study of Mus musculus with 8 samples.

Results

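The contractile and filament genes of smooth muscle were followed through the knockdown of *Nap1l2* and osteogenic induction. They are 10 genes, *Acta2*, *Actg2*, *Tpm1*, *Tpm2*, *Myl9*, *Myh11*, *Tagln*, *Cnn1*, *Synm* and *Sorbs2*, found by symbol among the 18605 genes of the expression table. The set was selected on known roles and on the fold changes that earlier work with these same libraries had shown in the knockdown and induction comparisons, so their levels and fold changes are given as a description and no test is read from them. Of the 10, 9 had enough counts to enter the fit across 13470 genes, and *Cnn1* did not.

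The RNA came from C3H10T1/2, a line of mesenchymal stem cells from mouse embryo (strain C3H), in 4 groups of 2 libraries. NC cells carried a non-target control, and KD-Nap1l2 cells carried lentiviral shRNA against *Nap1l2*, which encodes a histone chaperone. Both were grown in DMEM with 10% FBS and taken before induction (day 0). NC-7d and KD-Nap1l2-7d are the same cells after 7 days in osteogenic medium, which holds high-glucose DMEM, FBS, dexamethasone, ascorbic acid and β-glycerol phosphate, so the medium and the days in culture cannot be told apart. The labels do not say whether the replicates were separate cultures, so the spread between libraries may be technical.

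The counts summed to between 17420284 and 19427359 per library, and the log counts of replicates correlated at 0.973 to 0.988 across genes. The counts of *Nap1l2* itself were 3 and 3 (NC), 2 and 7 (KD-Nap1l2), 15 and 5 (NC-7d), and 7 and 13 (KD-Nap1l2-7d). A lower level of *Nap1l2* was therefore not detectable in the knockdown libraries at this depth, and the groups are named below as the libraries are labelled.

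Smooth muscle contracts when myosin filaments pull on actin filaments that are anchored in dense bodies and at the cell membrane. Its cells build this apparatus from their own forms of actin, myosin, tropomyosin and actin-binding proteins, and most of these genes are switched on by serum response factor (SRF) with a cofactor, myocardin or a myocardin-related factor, at promoter elements named CArG boxes. Mesenchymal cells and fibroblasts in culture also express part of the set, above all *Acta2* in stress fibres.

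Per length, the cells expressed the set very unevenly. *Acta2* and *Tpm1* were at 268 to 1556 and 289 to 976 FPKM over the 8 libraries, beside the cytoplasmic actin *Actb* at 906 to 1455 FPKM. *Myl9* and *Tpm2* were at 33.6 to 239 and 57.6 to 126 FPKM, and *Synm* and *Sorbs2* at 4.54 to 15.1 and 1.04 to 21.4 FPKM. The genes that define differentiated smooth muscle were close to 0. *Myh11* did not exceed 1.47 FPKM, *Tagln* 1.24 FPKM and *Cnn1* 0.28 FPKM, *Actg2* stayed at or under 6.35 FPKM, and *Myocd*, which encodes myocardin, had 0 to 10 counts. The label of these cells is mesenchymal, and the mesenchymal markers *Vim*, *Col1a1* and *Pdgfra* were at 1562 to 4538, 343 to 1039 and 25.5 to 57.7 FPKM. In bulk RNA, fewer cells that express a gene and less RNA per cell cannot be told apart.

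**Figure D1:**
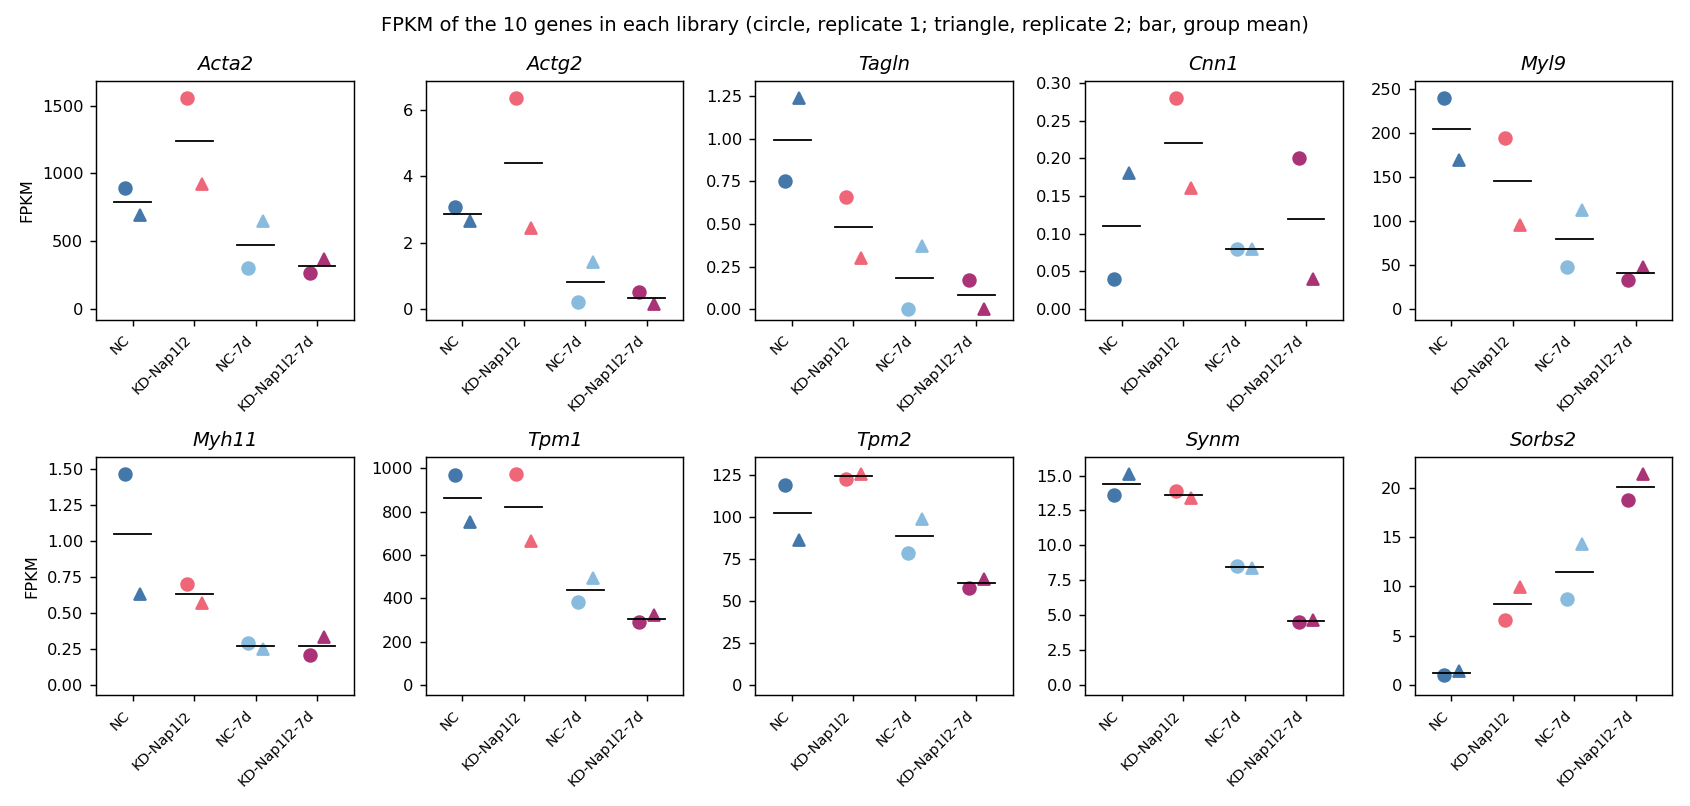
FPKM (y axis, from 0, one scale per gene) of the 10 genes in the 2 libraries of NC, KD-Nap1l2, NC-7d and KD-Nap1l2-7d (x axis), with circles for replicate 1, triangles for replicate 2 and a bar at the group mean. *Sorbs2* is lowest in NC, at 1.04 and 1.39 FPKM, and highest in KD-Nap1l2-7d, at 18.7 and 21.4 FPKM, while *Acta2*, *Tpm1*, *Myl9*, *Tpm2* and *Synm* have their lowest group mean in KD-Nap1l2-7d.

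The promoters are shown because SRF acts on these genes through letters close to the start of transcription. RefSeq starts of build GRCm38.p6 were at hand for 7 of the genes, with 9 start sites in all, 3 of them in *Sorbs2*. The 250 bases before the start are printed below for the 4 genes with a match, 5′ to 3′ on the strand of the gene. Capitals mark a CArG box (CC and GG on either side of a run of A and T), also when 1 base of the run is G or C, or CATTCC on either strand, the element bound by TEAD factors.
*Acta2*, chr19:34255374-34255623, minus strand: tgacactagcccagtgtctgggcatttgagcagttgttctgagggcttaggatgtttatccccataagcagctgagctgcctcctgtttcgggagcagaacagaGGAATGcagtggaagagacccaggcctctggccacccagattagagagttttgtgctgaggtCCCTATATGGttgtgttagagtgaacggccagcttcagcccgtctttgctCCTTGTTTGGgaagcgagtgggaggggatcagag
*Myl9*, chr2:156775214-156775463, plus strand: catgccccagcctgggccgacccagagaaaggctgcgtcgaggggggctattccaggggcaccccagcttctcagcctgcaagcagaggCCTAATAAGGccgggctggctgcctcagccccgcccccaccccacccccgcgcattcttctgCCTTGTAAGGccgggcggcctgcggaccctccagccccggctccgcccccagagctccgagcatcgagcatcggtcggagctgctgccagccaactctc
*Tpm1*, chr9:67049214-67049463, minus strand: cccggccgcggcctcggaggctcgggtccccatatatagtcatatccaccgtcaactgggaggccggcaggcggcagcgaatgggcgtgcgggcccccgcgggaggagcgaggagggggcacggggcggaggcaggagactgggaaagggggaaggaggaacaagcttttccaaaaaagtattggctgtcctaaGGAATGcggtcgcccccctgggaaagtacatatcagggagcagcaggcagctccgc
*Synm*, chr7:67759743-67759992, minus strand: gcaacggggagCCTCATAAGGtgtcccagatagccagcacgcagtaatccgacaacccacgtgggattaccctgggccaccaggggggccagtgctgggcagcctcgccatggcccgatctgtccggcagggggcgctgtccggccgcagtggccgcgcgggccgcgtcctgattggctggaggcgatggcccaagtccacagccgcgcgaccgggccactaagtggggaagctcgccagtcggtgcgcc

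Distances are from the start used for each window. In *Acta2*, the letters CCCTATATGG begin 84 bases and CCTTGTTTGG 34 bases before that start, each with 1 G or C in the run. GGAATG, the reverse complement of CATTCC, begins 146 bases before it. *Myl9* holds the only exact CArG box of these windows, CCTAATAAGG at 161 bases, followed by CCTTGTAAGG at 99 bases. *Synm* has CCTCATAAGG at 239 bases and *Tpm1* has GGAATG at 56 bases before the start. The windows of *Cnn1*, *Tpm2* and *Sorbs2* held no match. Other annotated starts lie farther upstream. The *Acta2* transcript NM_007392.3, with 79.4% to 83.1% of the *Acta2* count, starts at chr19:34255590, inside the printed window. The marked letters of *Acta2* all lie downstream of that start. The *Tpm1* transcript NM_024427.4 starts at chr9:67049406, also inside the printed window, and GGAATG lies downstream of it. Which start the cells used was not tested. Over 300 bases, from 250 before to 50 after the start, 1 of the 9 windows held an exact CArG box, against 1.63% of 32851 mouse promoters, 3 of 9 held one with at most 1 G or C in the run, against 9.98%, and 2 of 9 held CATTCC, against 14.7%. These matches are descriptions of the letters, not of binding.

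*Acta2* encodes smooth muscle α-actin, the main thin-filament actin of vascular smooth muscle, and lies at chr19:34240336-34255585 (GRCm38.p6). Its FPKM was 891 and 695 in NC, 1556 and 923 in KD-Nap1l2, 307 and 647 in NC-7d and 268 and 367 in KD-Nap1l2-7d. Both KD-Nap1l2 libraries were above both NC libraries, both NC libraries were above both NC-7d libraries, and the 2 induced groups overlapped. The log2 fold change of normalized counts was 0.63 ± 0.36 (standard error of the fit) for KD-Nap1l2 against NC and -0.57 ± 0.36 for KD-Nap1l2-7d against NC-7d. Over the 7 days it was -0.75 ± 0.36 in the control cells and -1.95 ± 0.38 in the cells labelled KD-Nap1l2, where the mean count was 3.87 times lower after induction. Its estimated counts were not whole, and actins are near-identical paralogs, so its level is uncertain as far as reads were split between them, which was not tested. Without NC-7d replicate 1 the log2 fold change in control cells was -0.33, and without NC-7d replicate 2 it was -1.35.

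*Actg2*, at chr6:83512909-83536251, encodes the γ-actin of enteric smooth muscle. NC held 75 and 67 of its counts, KD-Nap1l2 147 and 58, NC-7d 5 and 34, and KD-Nap1l2-7d 12 and 4. Every induced library was below every uninduced one, and the groups labelled knockdown and control overlapped at both times. The log2 fold change over the 7 days was -1.82 ± 0.73 in control cells and -3.63 ± 0.81 in cells labelled KD-Nap1l2. Leaving out NC-7d replicate 1 gave -1.06 and leaving out its replicate 2 gave -3.64 in control cells. In cells labelled KD-Nap1l2, leaving out KD-Nap1l2 replicate 1 gave -2.87, and leaving out replicate 1 of KD-Nap1l2-7d gave -4.57.

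Tropomyosins lie along the actin filament and govern the access of myosin to it. *Tpm1*, at chr9:67022590-67049672, was at 972 and 753 FPKM in NC, 976 and 666 in KD-Nap1l2, 381 and 495 in NC-7d and 289 and 322 in KD-Nap1l2-7d. The uninduced groups overlapped, and below them the NC-7d libraries lay above the KD-Nap1l2-7d libraries without overlap. The log2 fold change over the 7 days was -0.98 ± 0.22 in control cells and -1.40 ± 0.22 in cells labelled KD-Nap1l2, and it was -0.52 ± 0.21 for KD-Nap1l2-7d against NC-7d.

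*Tpm2*, which encodes β-tropomyosin at chr4:43513726-43523583, differed from *Tpm1* in the control cells. Its FPKM was 119 and 86.2 in NC and 78.3 and 98.5 in NC-7d, so these groups overlapped, with a log2 fold change of -0.27 ± 0.20. In the cells labelled KD-Nap1l2 it was 122 and 126 FPKM before and 57.6 and 63.1 FPKM after induction, which are the highest and the lowest group of the 4, with a log2 fold change of -1.10 ± 0.20. KD-Nap1l2 lay above NC without overlap by FPKM, but the groups overlapped by normalized count.

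*Myl9*, at chr2:156775408-156781657, encodes the regulatory light chain whose phosphorylation starts contraction. It was at 239 and 170 FPKM in NC, 194 and 95.3 in KD-Nap1l2, 47.4 and 112 in NC-7d and 33.6 and 47.7 in KD-Nap1l2-7d. Neighbouring groups overlapped in this order on the FPKM scale, and KD-Nap1l2-7d lay below NC and KD-Nap1l2 without overlap. The log2 fold change over the 7 days was -1.38 ± 0.43 in control cells and -1.80 ± 0.44 in cells labelled KD-Nap1l2. When 1 library was left out, the value in control cells ran from -2.08, without NC-7d replicate 2, to -0.91.

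*Myh11*, at chr16:14194527-14292188, encodes the smooth muscle myosin heavy chain, and it was present only as a trace. NC held 161 and 70 of its counts, KD-Nap1l2 76 and 68, NC-7d 27 and 28, and KD-Nap1l2-7d 24 and 31. All 4 induced libraries were below all 4 uninduced ones, and the induced groups overlapped, with a log2 fold change between them of 0.017 ± 0.46. Over the 7 days its mean count was 75.0% lower in control cells and 61.1% lower in cells labelled KD-Nap1l2, and the log2 difference between these was 0.64 ± 0.61. Without NC replicate 1 that difference was -0.13 and the log2 fold change in control cells -1.23.

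The actin-binding proteins transgelin and calponin 1 mark differentiated smooth muscle. *Tagln*, at chr9:45929628-45936058, was counted at 22 and 38 for NC, 19 and 9 for KD-Nap1l2, 0 and 11 for NC-7d, and 5 and 0 for KD-Nap1l2-7d. A count of 0 allows up to 3 counts, or 0.154 to 0.172 CPM over these libraries, and such limits cover counting error only. With a library at 0 in both induced groups, its fitted fold changes, drawn in the plot of fold changes with their wide errors, rest on these few counts and are no measure of size. *Cnn1*, at chr9:22099221-22109221, had 1 to 7 counts in each library, and no difference between groups was detectable at this depth.

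*Synm* encodes synemin, an intermediate filament protein that ties desmin and vimentin filaments to the membrane, and lies at chr7:67730161-67759742. It had the smallest standard errors of the 9 genes, with 13.6 and 15.1 FPKM in NC, 13.9 and 13.4 in KD-Nap1l2, 8.49 and 8.35 in NC-7d and 4.54 and 4.65 in KD-Nap1l2-7d. The uninduced groups overlapped, and each of the other steps had no overlap. The log2 fold change over the 7 days was -0.78 ± 0.12 in control cells and -1.55 ± 0.12 in cells labelled KD-Nap1l2, and it was -0.86 ± 0.12 between the induced groups.

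*Sorbs2*, at chr8:45507788-45827906, encodes an adaptor that binds vinculin and actin at adhesions and in the Z-discs of striated muscle, and it was the one gene of the 9 with a higher level after induction. It was at 1.04 and 1.39 FPKM in NC, 6.54 and 9.88 in KD-Nap1l2, 8.74 and 14.2 in NC-7d and 18.7 and 21.4 in KD-Nap1l2-7d. NC was below and KD-Nap1l2-7d above all other libraries, and KD-Nap1l2 overlapped NC-7d. The log2 fold change was 2.76 ± 0.31 between the uninduced groups and 0.80 ± 0.27 between the induced groups, and over the 7 days it was 3.25 ± 0.31 in control cells and 1.28 ± 0.28 in cells labelled KD-Nap1l2.

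**Figure D2:**
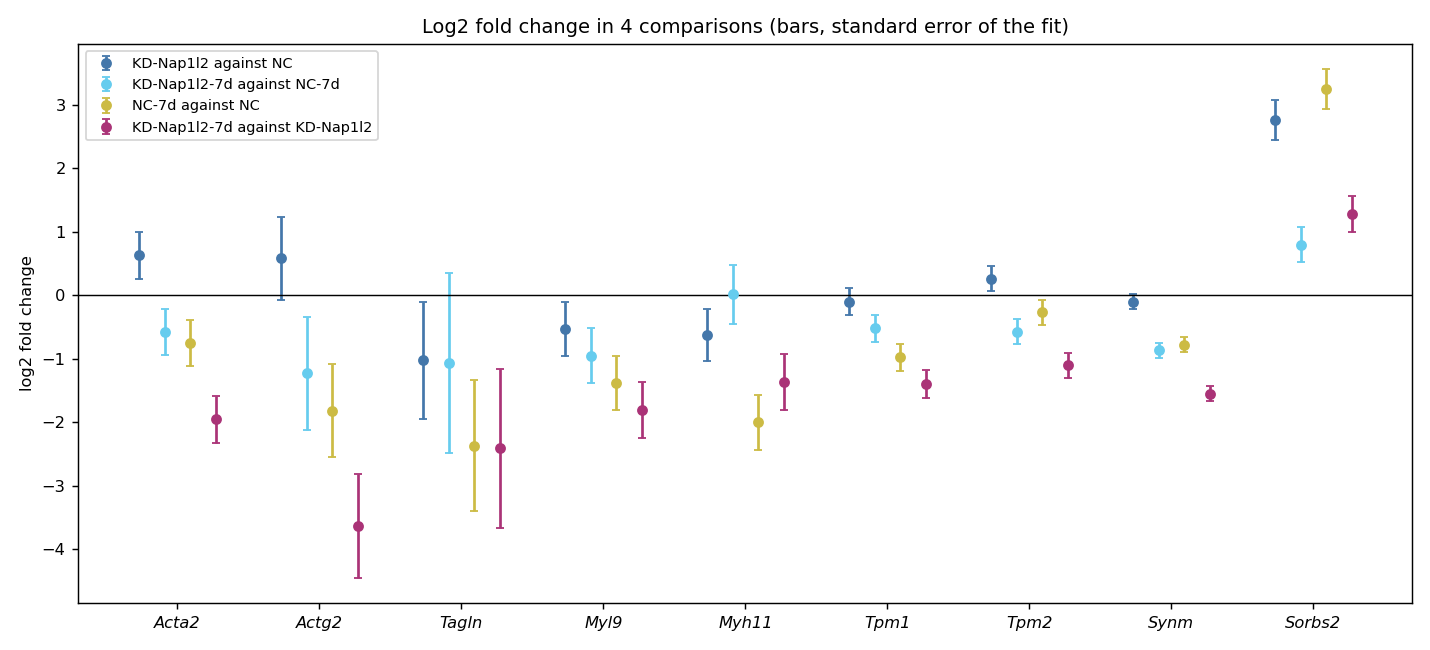
Log2 fold change of normalized counts (y axis) for the 9 genes in the fit (x axis) in 4 comparisons, with bars for the standard error of the fit. *Sorbs2* lies above 0 in each comparison, between 0.80 and 3.25, and the other 8 genes lie below 0 in both induction comparisons, from -0.27 (*Tpm2* in control cells) to -3.63 (*Actg2* in cells labelled KD-Nap1l2).

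Calls (edgeR's quasi-likelihood test, Benjamini-Hochberg adjusted p under 0.05 over the 13470 genes) were counted beside the share of all genes called, and nothing is read from the counts of these 9 genes, which were put together with the results known. Before induction, 1 of 9, *Sorbs2*, was called higher in KD-Nap1l2 and 0 lower, where 0.0817% of all genes were called, 0.0223% higher and 0.0594% lower. At an unadjusted p-value under 0.05, 1 of 9 and 13.7% of all genes passed. The call of *Sorbs2* was lost in 7 of 16 alternatives, among them those without NC replicate 1, NC replicate 2, KD-Nap1l2 replicate 2 or either KD-Nap1l2-7d replicate, while its log2 fold change stayed between 2.04 and 3.08. After induction, 0 of 9 and 0 of all genes (0%) were called between KD-Nap1l2-7d and NC-7d by edgeR. There, 4 of the 9 (*Tpm1*, *Tpm2*, *Synm* and *Sorbs2*) and 1057 of all genes (7.85%) had an unadjusted p-value under 0.05, and DESeq2 called 82 genes, *Synm* among them. In simulated data with no change in this comparison, DESeq2 called 9 genes and edgeR 0. The median log2 fold change of the 9 genes was -0.097 before and -0.57 after induction, beside 0.011 and -0.0056 over all genes tested. It was above 0 for 4 of the 9 before and for 2 of the 9 after induction, beside 51.5% and 49.1% of all genes. By normalized count, the groups did not overlap for 5 of the 9 after induction, 4 of them (*Myl9*, *Tpm1*, *Tpm2* and *Synm*) lower in KD-Nap1l2-7d, where 21% of all genes were lower and 21% higher without overlap. For *Myl9* the gap was slight, and by FPKM its groups overlapped. Before induction 2 of the 9 (*Acta2* and *Sorbs2*) were higher and 1 (*Tagln*) lower without overlap, beside 22% and 21.2% of all genes.

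Over the 7 days in control cells, 1 of 9 was called higher (*Sorbs2*) and 3 lower (*Myh11*, *Tpm1* and *Synm*), where 8.21% of all genes were called, 4.83% higher and 3.38% lower. Only *Sorbs2* was called without NC replicate 1, and 2 of 9 were called without NC replicate 2, without NC-7d replicate 1 or without either KD-Nap1l2-7d replicate. In cells labelled KD-Nap1l2, 1 of 9 was called higher (*Sorbs2*) and 6 lower (*Acta2*, *Actg2*, *Myl9*, *Tpm1*, *Tpm2* and *Synm*), where 14.2% of all genes were called, 6.84% higher and 7.36% lower. Of these 7, only *Synm* was still called without KD-Nap1l2-7d replicate 1 or without replicate 2, and 4 of 9 genes were called without KD-Nap1l2 replicate 1. Without overlap between the groups, 8 of 9 were lower in KD-Nap1l2-7d than in KD-Nap1l2, beside 30.6% of all genes, and 7 of 9 were lower in NC-7d than in NC, beside 28.4%. *Sorbs2* was higher without overlap in both, beside 30.8% and 29.4% of all genes. The median log2 fold change was -0.98 in control cells and -1.55 in cells labelled KD-Nap1l2, beside -0.0035 and -0.007 over all genes. In both, 1 of the 9 was above 0, beside 49.6% and 49.3% of all genes.

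The 2 inductions were also compared directly, as the change in cells labelled KD-Nap1l2 minus that in control cells. The difference was above 0 for 1 of the 9 genes (*Myh11*), beside 47.8% of all genes, and below 0 for the other 8, and its median was -0.77, beside -0.019 over all genes. The sign turned when 1 library was left out for *Myh11* (-0.13 to 1.14), *Actg2* (-2.75 to 0.014), *Myl9* (-0.89 to 0.28) and *Tagln* (-4.46 to 5.43). It did not turn for *Acta2*, *Tpm1*, *Tpm2*, *Synm* and *Sorbs2*, the last with -1.97 ± 0.41. The edgeR test called 0 of 9 and 0% of all genes for this difference. At an unadjusted p-value under 0.05 it passed 4 of the 9 (*Acta2*, *Tpm2*, *Synm* and *Sorbs2*) and 948 of all genes (7.04%), and DESeq2 called 97 genes, *Sorbs2* among them. The induction comparisons and the knockdown comparisons share libraries, so they are set side by side as values only.

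**Figure D3:**
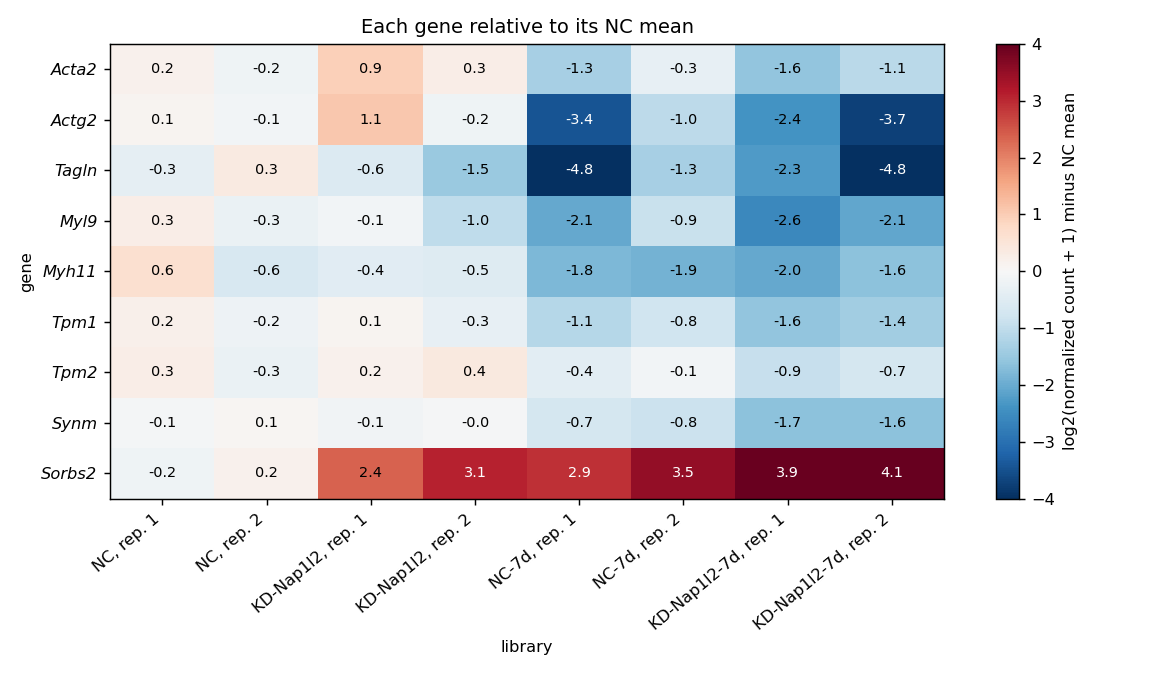
Log2 of the normalized count plus 1, minus the mean of the NC libraries, for 9 genes (rows) in the 8 libraries (columns), with blue for below and red for above the NC mean. In the NC-7d columns, replicate 2 is closer to 0 than replicate 1 for *Acta2* (-0.32 and -1.34) and *Myl9* (-0.88 and -2.06), and *Sorbs2* alone is red in all 6 libraries outside NC.

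The spread between the control libraries after induction was wide for several of these genes. *Acta2* was 2.02 times higher in NC-7d replicate 2 than in replicate 1, compared with 1.41 times between the KD-Nap1l2-7d libraries, 1.60 times between the KD-Nap1l2 libraries and 1.26 times between the NC libraries. Of the 9 genes, 7 were higher in NC-7d replicate 2, and the median of their log2 differences was 0.61 in size, while over all genes the median was 0.010 with a standard deviation of 0.63. The other groups were also uneven. In KD-Nap1l2-7d, 7 of the 9 were higher in replicate 2, with a median of 0.20 in size. In NC and KD-Nap1l2, 6 of the 9 were higher in replicate 1, with medians of 0.33 and 0.43. The osteoblast gene *Spp1*, osteopontin, was counted 90638 times in NC-7d replicate 1 and 38565 times in replicate 2, beside 30999 and 30011 times in NC and 81451 and 75230 times in KD-Nap1l2-7d. The NC-7d library with the higher *Acta2* had the lower *Spp1*, and the part of this in the results was not tested. Without NC-7d replicate 1, the log2 fold change of *Acta2* between the induced groups was -0.99, and without replicate 2 it was 0.025.

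*Tpm1* makes its protein forms from separate start sites, and the start sites did not move together. The transcript table lists 12 *Tpm1* transcripts, of which 7 were placed on GRCm38 through GENCODE vM21. Of these, 5 start between chr9:67049172 and 67049406 on the minus strand and code for 281 to 284 codons, the long tropomyosins of muscle and stress fibres. The other 2 start inside the gene, at 67043802 and 67043907, and code for 248 codons, the short tropomyosins. The window printed above lies among the upstream starts.

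The long transcripts summed to 26499 and 19704 normalized counts in NC, 25746 and 18235 in KD-Nap1l2, 8850 and 12206 in NC-7d and 5923 and 6980 in KD-Nap1l2-7d. They were 2.19 times lower after induction in control cells and 3.41 times lower in cells labelled KD-Nap1l2, and the NC-7d libraries lay above the KD-Nap1l2-7d libraries. The short transcripts summed to 2126 and 2346 in NC, 1837 and 1618 in KD-Nap1l2, 2660 and 1772 in NC-7d and 2452 and 2530 in KD-Nap1l2-7d. NC and NC-7d overlapped for the short transcripts, and KD-Nap1l2-7d was 1.44 times above KD-Nap1l2 without overlap.

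The short transcripts took 6.99% and 10.1% of the *Tpm1* count in NC, 6.38% and 7.59% in KD-Nap1l2, 22.0% and 11.7% in NC-7d and 27.5% and 25.0% in KD-Nap1l2-7d. All 4 induced libraries had a higher share than all 4 uninduced ones, and the 2 NC-7d libraries were far apart. The 5 transcripts that could not be placed took 4.22% to 7.78%. Transcript counts are the authors' estimates for forms that share most of their exons, and no test was made of them.

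**Figure D4:**
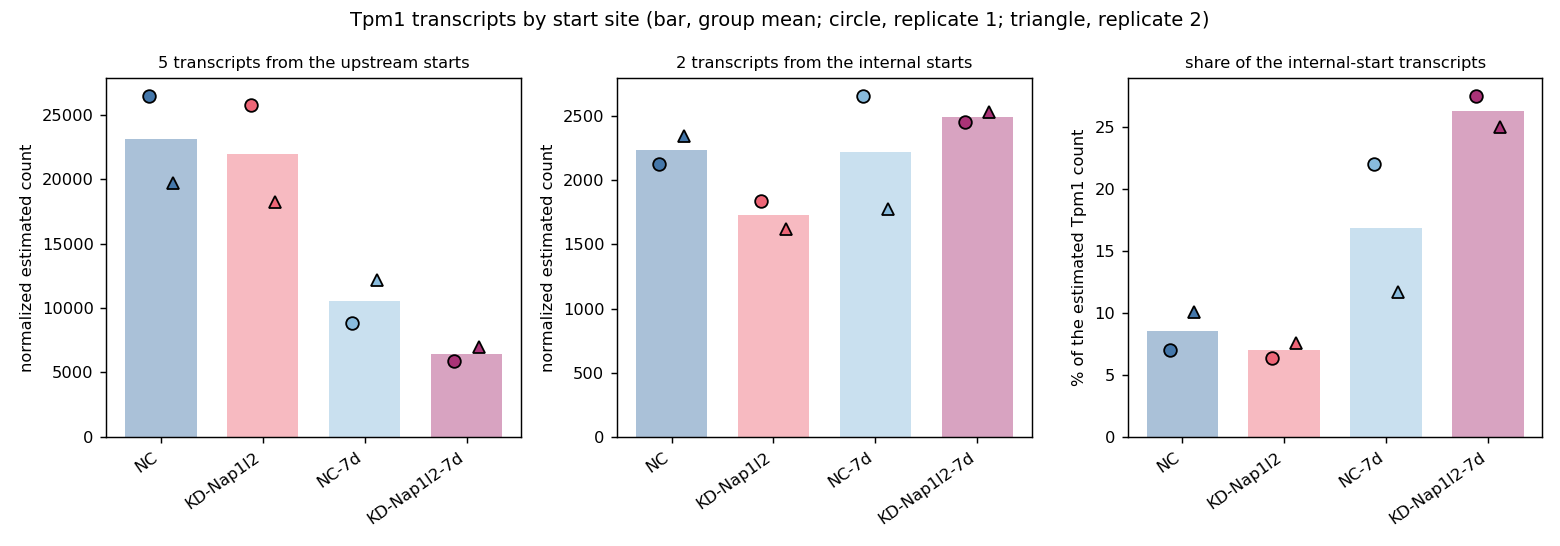
Normalized estimated counts of the *Tpm1* transcripts from the 5 upstream starts (left) and the 2 internal starts (middle), and the share of the internal-start transcripts in % of the *Tpm1* count (right), by group, with bars from 0 at the group mean and points for the libraries. The left panel drops from 26499 and 19704 in NC to 5923 and 6980 in KD-Nap1l2-7d, while the middle panel stays between 1618 and 2660 in all libraries.

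Other genes of the smooth muscle apparatus and its surroundings came from lists written with the earlier results known, and their calls are over all genes tested. Beside each count below stand the shares of all genes, 4.83% called higher and 3.38% lower over the 7 days in control cells, and 6.84% higher and 7.36% lower in cells labelled KD-Nap1l2. Of 25 further smooth muscle genes, 20 were tested. In control cells 2 of them fell over the 7 days, *Itga8* (integrin α8, log2 fold change -1.57 ± 0.21) and *Filip1l* (-1.04 ± 0.25), and 0 rose. In cells labelled KD-Nap1l2, 4 fell and 0 rose, *Filip1l* (-1.40 ± 0.25), *Ldb3* (a PDZ and LIM protein of muscle, -1.33 ± 0.34), *Itga8* (-1.20 ± 0.21) and *Vcl* (vinculin, -0.82 ± 0.15). None of the 4 was called without KD-Nap1l2-7d replicate 1 or replicate 2, and *Ldb3* was also lost without NC replicate 1, NC replicate 2 or KD-Nap1l2 replicate 1. In control cells *Itga8* kept its call in all 16 alternatives, and *Filip1l* lost it when any 1 of the NC, NC-7d or KD-Nap1l2-7d libraries was left out. The medians of the list were -0.073 and -0.32, beside -0.0035 and -0.007 over all genes, and 0 of the 20 were called in either knockdown comparison, with 3 and 4 at an unadjusted p-value under 0.05, beside 13.7% and 7.85% of all genes.

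Of the 20, 16 were not called in either direction in cells labelled KD-Nap1l2, and 18 in control cells. *Cald1* (caldesmon), *Mylk* (myosin light chain kinase), *Lmod1* (leiomodin) and *Smtn* (smoothelin) were at 221 to 324, 14.4 to 41.3, 10.5 to 27.6 and 33.1 to 62.4 FPKM over the 8 libraries. Their log2 fold changes over the 7 days in cells labelled KD-Nap1l2 were -0.31 ± 0.14, -0.68 ± 0.20, 0.15 ± 0.29 and -0.24 ± 0.26. *Des*, which encodes desmin, the main intermediate filament protein of muscle, was at 1.22 to 3.24 FPKM.

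Of the 22 regulators of smooth muscle genes, 21 were tested. *Srf* had a log2 fold change over the 7 days of -0.25 ± 0.22 in control cells and -0.46 ± 0.22 in cells labelled KD-Nap1l2, and was not called. *Mkl1* and *Mkl2*, which encode the myocardin-related factors, had log2 fold changes between -0.14 and 0.32 in these 2 comparisons and were not called either. *Gata6*, a factor of vascular smooth muscle, fell in both, by 1.22 ± 0.23 and 0.97 ± 0.24 on the log2 scale, and *Tgfb3* rose by 0.81 ± 0.19 in control cells. These calls depended on libraries, since *Gata6* was not called in control cells without NC replicate 1 or NC-7d replicate 1, nor in the other cells without either replicate of KD-Nap1l2 or KD-Nap1l2-7d. The call of *Tgfb3* was lost when any 1 of the NC, NC-7d or KD-Nap1l2-7d libraries was left out.

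Among the 12 immediate targets of SRF, 1 rose in control cells, beside 4.83% of all genes, and 2 in cells labelled KD-Nap1l2, beside 6.84%. *Ctgf*, a matrix protein also induced by TGF-β, rose over the 7 days by 1.23 ± 0.24 in control cells and by 2.24 ± 0.25 in cells labelled KD-Nap1l2, and *Atf3* rose by 1.18 ± 0.31 in the latter. The other genes of the list were not called, and 0 of 12 fell. The list spread widely between the NC-7d libraries, where it summed to 242 FPKM in replicate 1 and 1080.4 FPKM in replicate 2. The sums of replicates 1 and 2 were 782 and 337 FPKM in NC and 237 and 425 FPKM in KD-Nap1l2. In KD-Nap1l2-7d they were 527 and 395 FPKM. The higher sum was in the library with the higher *Acta2* in NC and NC-7d. It was in the library with the lower *Acta2* in KD-Nap1l2 and KD-Nap1l2-7d. The part of this spread in the results was not tested. Named after their values were seen, *Egr1*, *Fos* and *Cyr61* had 1777, 87 and 639 counts in NC-7d replicate 1 and 15491, 2541 and 8799 in replicate 2. The call of *Ctgf* in control cells was lost when any 1 of the NC or NC-7d libraries was left out, and that of *Atf3* when any 1 of the KD-Nap1l2 or KD-Nap1l2-7d libraries was.

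Genes of the non-muscle actin cytoskeleton, a list of 26, were called in both directions. *Myh10*, a non-muscle myosin heavy chain, fell over the 7 days by 0.64 ± 0.13 in control cells and by 1.01 ± 0.13 in cells labelled KD-Nap1l2, and *Tpm4*, a further tropomyosin, fell by 0.73 ± 0.16 in the latter. *Actn1* and *Flnc*, which encode α-actinin 1 and filamin C, rose in control cells by 0.63 ± 0.14 and 0.59 ± 0.13. These 2 rises were not called when any 1 of the NC, NC-7d or KD-Nap1l2-7d libraries was left out. The fall of *Myh10* in control cells was lost without NC replicate 1 or any 1 of the induced libraries, the falls in cells labelled KD-Nap1l2 without either KD-Nap1l2-7d library, and that of *Tpm4* also without KD-Nap1l2 replicate 2. *Actb* and *Actg1*, the cytoplasmic actins, were not called, with log2 fold changes of -0.14 ± 0.19 and -0.46 ± 0.17 in cells labelled KD-Nap1l2.

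Markers of other cell types were measured in the same libraries. Of 27 skeletal and cardiac muscle markers 12 were tested, their summed level was 19.2 to 47.3 FPKM, and the defining genes *Myod1* and *Myog* had 0 to 1 and 0 to 3 counts. In cells labelled KD-Nap1l2, *Tnnt2* rose by 3.56 ± 0.68 and *Tnnt3* and *Tnni1* fell by 2.28 ± 0.52 and 1.61 ± 0.39 on the log2 scale over the 7 days. The 8 pericyte markers summed to 146 to 190 FPKM, with *Rgs5* at 1 to 20 counts, and *Cspg4* fell by 0.86 ± 0.19 in cells labelled KD-Nap1l2. The largest part of the sum was *Pdgfrb*, at 84.1 to 128 FPKM, which is also in the mesenchymal list. Named after their values were seen, *Mcam*, *Abcc9* and *Kcnj8* did not exceed 0.85, 0.09 and 0.03 FPKM. The 8 endothelial and immune markers in the table summed to 4.17 to 9.40 FPKM, with *Pecam1* at 3 to 25 and *Ptprc* at 0 to 4 counts, and *Tek* fell by 2.81 ± 0.44 in cells labelled KD-Nap1l2.

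The lineage markers of the induced cells moved as well. The 8 adipocyte markers summed to 32.5 to 60.8 FPKM before and 175 to 229 FPKM after induction, and *Pparg* and *Fabp4* rose in both kinds of cells, *Fabp4* by 4.09 ± 0.40 in control cells, while *Cebpa* and *Lpl* fell in cells labelled KD-Nap1l2. The 8 osteoblast markers summed to 1086 to 1304 FPKM before and 1487 to 3703 FPKM after induction. Nearly all of this was *Spp1*, at 1067 to 3683 FPKM over the 8 libraries. Named after their values were seen, *Sp7*, *Alpl*, *Ibsp* and *Bglap* had 1 to 5, 0 to 10, 0 to 2 and 0 to 22 counts. The median log2 fold change of the 5 osteoblast markers tested was -0.46 in control cells and 1.18 in cells labelled KD-Nap1l2. By counts, *Spp1* rose by 1.41 ± 0.38 in cells labelled KD-Nap1l2, a call lost in 7 of 16 alternatives, and neither it nor *Runx2* was called in control cells. *Runx2*, the osteoblast master factor, was called lower by counts in cells labelled KD-Nap1l2, with a log2 fold change of -0.58 ± 0.14, but was at 15.2 and 15.6 FPKM before and 15.1 and 16.0 FPKM after induction, and its call was lost in 8 of 16 alternatives, both fits to FPKM among them. The 10 mesenchymal markers summed to 6225 to 8417 FPKM before and 4159 to 5486 FPKM after induction, and 5 of them fell, *Thy1*, *Col1a1*, *Col1a2*, *Prrx1* and *Twist1*, in cells labelled KD-Nap1l2. In control cells *Thy1* fell and *Twist2* rose. Of the calls for markers of other cell types and lineages in cells labelled KD-Nap1l2, *Fabp4* alone was kept without each KD-Nap1l2-7d library. In control cells *Pparg* was not called without either NC library, *Thy1* without any 1 of the NC, NC-7d or KD-Nap1l2-7d libraries, nor *Twist2* without NC replicate 1 or any 1 induced library. These shifts stood beside the lower contractile genes, and their part in them was not tested.

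Across the 8 libraries, the 28 pairs among the 8 genes other than *Sorbs2* all had a correlation of log2 CPM above 0, from 0.591 to 0.965, and the 8 pairs with *Sorbs2* all had one below 0. The libraries fall into 4 groups and share these groups in every pair, so the values describe the pattern and carry no p-value. Of 11273 genes whose normalized counts averaged 50 or more, the 10 outside the set most like its mean scaled level were *Actn3*, *Trim59*, *Sorcs1*, *Smc4*, *Grb10*, *Snai2*, *Pradc1*, *Miip*, *Hmgn2* and *Glt8d2*, with a correlation of 0.985 to 0.996 over the 8 libraries. That mean was taken over all 9 genes in the fit, *Sorbs2* included, which itself correlated with it at -0.67. *Actn3*, an α-actinin of fast muscle fibres, was at 12 and 8.20 FPKM in NC, 12.7 and 9.44 in KD-Nap1l2, 2.10 and 5.09 in NC-7d and 1.88 and 2.25 in KD-Nap1l2-7d. *Snai2*, a transcription factor of mesenchymal cells, was at 113 and 102 FPKM in NC, 153 and 96.1 in KD-Nap1l2, 45.1 and 85.1 in NC-7d and 39.5 and 41.6 in KD-Nap1l2-7d. In both genes, NC-7d replicate 2 lay nearer to the uninduced libraries than replicate 1. This follows from how they were chosen, since the mean scaled level of the set was -0.72 in NC-7d replicate 1 and -0.0034 in replicate 2.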

How the data were processed

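RNA-seq of C3H10T1/2 cells was analysed in 4 groups of 2 libraries. The authors deposited raw estimated counts of genes and transcripts, of which 41.1% of the genes had at least 1 value that was not whole. FPKM, which the authors deposited beside them, is scaled for length and library size. RSEM, Bowtie2, BWA and GRCm38.p6 are named in the submitters' processing notes without a role or version. Deposited columns of log2 fold changes, p-values and q-values between groups were not used.

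Rounded counts were scaled by TMM, filtered with filterByExpr and tested by quasi-likelihood in edgeR 4.0.16 (R 4.3.3), with the 8 libraries in a single model. Benjamini-Hochberg adjusted p-values under 0.05 were taken as calls. Standard errors are the size of the log2 fold change over the root of the F statistic. Transcripts were placed with GENCODE vM21 and promoters taken from RefSeq. Besides the 10 genes, text names were given to called genes of each list (the 4 largest per direction, and the smallest call of the mesenchymal list, added after its value was seen), to defining markers, and to the 10 genes most like the set. Some list genes are not reported here. The 10 genes and the lists were chosen with earlier results of these data known.

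Alternatives were DESeq2 1.42.0, RLE size factors, other filters, the compared libraries alone, a replicate block, limma 3.58.1 on log2(FPKM + 1) and log2(FPKM + 0.1), and leaving out each library. Running them for the further smooth muscle genes was chosen after seeing the data. Tested on simulated data for KD-Nap1l2 against NC (13280 genes), edgeR recovered 88 of 100 genes with 4-fold changes and 49 of 100 with 2-fold changes, and 10 calls were false.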

Additional observations from a re-analysis of the deposited data

How the results depend on the processing

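The counts of calls depended on the settings. Of 699 fold changes of the 9 genes recomputed under an alternative, 652 moved by less than 1 SD of the replicates and 47 by more, and 0 called values changed sign. With 2 libraries per group, leaving 1 out can hardly move a fold change by more than this SD. The 652 are therefore no measure of stability. Without 1 library, the log2 fold change of *Acta2* over the 7 days in control cells ran from -1.35 to -0.33. For KD-Nap1l2 against NC, 11 genes were called, beside 462 with DESeq2, 160 with no filter on low counts, 4 with at least 10 counts in every library, 0 with only the libraries compared, 33 with limma on log2(FPKM + 1), 18 on log2(FPKM + 0.1), and 0 to 562 without 1 library. The 1 member called became 0 with at least 10 counts in every library or only the libraries compared, and 0 to 1 without 1 library. For KD-Nap1l2-7d against NC-7d, 0 genes became 82 with DESeq2 and 0 to 1 without 1 library, and 0 members became 1 with DESeq2. For NC-7d against NC, 1106 genes became 122 to 1490 without 1 library, and 4 members became 2 with only the libraries compared and 1 to 4 without 1 library. For KD-Nap1l2-7d against KD-Nap1l2, 1912 genes and 7 members became 305 to 2218 and 1 to 7 without 1 library. For the difference of the inductions, 0 genes became 97 with DESeq2, 1 with no filter on low counts and 0 to 19 without 1 library, and 0 members became 1 with DESeq2. The further smooth muscle genes called in control cells, 2 of 20, became 4 with DESeq2, 1 with only the libraries compared and 1 to 2 without 1 library, and the 4 called in cells labelled KD-Nap1l2 became 0 to 5 without 1 library. A group left with 1 library was assumed to vary like the others, and the cause of these moves was not tested.

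The labels do not say whether same-numbered libraries belong together. Their deviations from the group means correlated at -0.061 to 0.10, which shows no pairing but cannot exclude one. With the replicate block, 4 genes were called for KD-Nap1l2 against NC, and 1 further smooth muscle gene in control cells. With 2 libraries per group, no exact test between groups can reach a p-value of 0.05, and *Cnn1*, *Tagln* and *Nap1l2* were limited by depth.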
